A study of Arabidopsis thaliana with 6 samples.

Results

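The 10 genes described here are the long members of the callose synthase family of Arabidopsis thaliana, out of 27444 protein-coding genes on the nuclear chromosomes. They are CALS1 (AT1G05570), CalS7 (AT1G06490), CALS5 (AT2G13680), GSL03 (AT2G31960), GSL8 (AT2G36850), GSL10 (AT3G07160), GSL04 (AT3G14570), GSL11 (AT3G59100), GSL12 (AT5G13000) and GSL09 (AT5G36870), and GSL1 and GSL05 of the same family were left out as nearly intronless. The genes were chosen by family, by gene structure and with the peaks of these lists already known, so their peaks are described and not tested. Binding of AtDEK3, a chromatin protein with a DEK domain, was measured by chromatin immunoprecipitation and sequencing (ChIP-seq) in 14-day-old Col-0 seedlings. All libraries came from AtDEK3 overexpressors carrying a CFP-tagged protein, grown under 16 h light and 8 h dark, and a GFP antibody was used. The ChIP group had 3 libraries, 1 from each of the independent lines OE3-1, OE9-1 and OE17-4, and the input group had 3 libraries, which were not analysed here. Each line is 1 library, no line without the transgene is among the 6 samples, and the promoter that drives the transgene is not given in the sources used here.

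Callose is a linear glucan of glucose units in beta-1,3 linkage. It is laid down at the cell plate of dividing cells, around plasmodesmata, on the sieve plates of the phloem, around developing microspores and at wounds. Callose synthases are very large membrane proteins that build it from UDP-glucose, and beta-1,3-glucanases remove it, so that the balance of both sets how open plasmodesmata are.

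In RefSeq's gene table of assembly TAIR10.1 the 10 genes spanned 10471 bp (GSL04) to 16053 bp (GSL09), with a median of 11973 bp. The median of all protein-coding genes was 2078 bp, and 0.372% of them were at least as long as GSL04. The nearly intronless GSL1 and GSL05 spanned 6349 and 6555 bp. The table holds no exons, strand or sequence, so the number of introns was not checked, and which gene end is the start of transcription is not known here. Positions are therefore given from the gene end with the lower coordinate.

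Every one of the 10 genes had a peak within 1 kb in at least 1 line. The lists held 22 such peaks, of 12491 in all, with 11 in OE3-1, 6 in OE9-1 and 5 in OE17-4. A set of 16 peaks lay inside 8 of the genes and 6 lay in the 1 kb beside a gene. A line had a peak at 5.33 ± 1.15 of the 10 genes (SD, n = 3), namely at 6 in OE3-1, 6 in OE9-1 and 4 in OE17-4. Peaks of a single line were found at 5 genes, of a pair of lines at 4, and of all 3 at GSL8. Among the 76 other protein-coding genes of like length, described further on, these shares were 46.1%, 30.3% and 5.26%. The members' split over these classes lay near that of such genes. Of the 76 genes, 18.4% had no peak in any line, against 0 of the 10 members. A line had a peak at 40.8 ± 28.5% of these 76 genes (SD, n = 3). OE3-1 and OE9-1 had 4 of the genes in common (CALS5, GSL03, GSL8 and GSL10), OE3-1 and OE17-4 had 2 (CalS7 and GSL8), and OE9-1 and OE17-4 had GSL8 alone. The share of genes of like length in common is not given for each pair of lines, so nothing about the family is read from these overlaps.

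**Figure D1:**
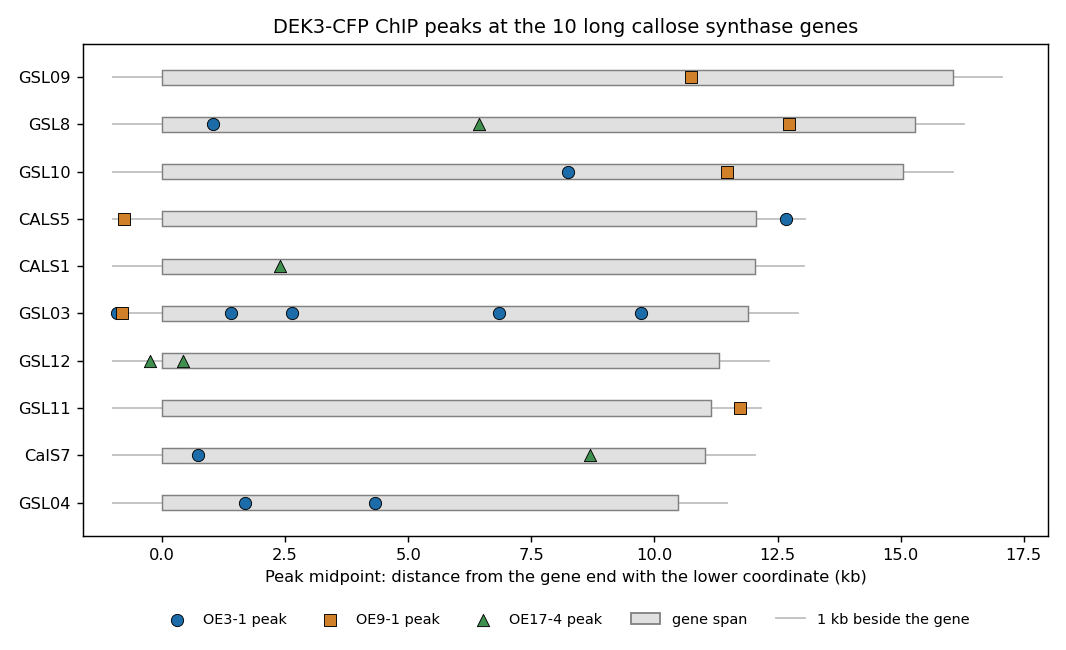
Peaks at the 10 callose synthase genes, ordered from the longest (top) to the shortest. The x axis gives the distance of each peak midpoint in kb from the gene end with the lower coordinate, grey boxes are gene spans and symbols mark the line. GSL03 carries 5 of the 11 OE3-1 peaks, and GSL8 is the only one of the 10 with all 3 symbols.

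The comparison with genes of like length used every other protein-coding gene with a span from 10471 to 16053 bp, which were 76 genes with a median of 12195.5 bp. In OE3-1, 6 of 10 callose synthase genes had a peak within 1 kb, against 73.7% of the genes of like length (exact 95% interval 62.3 to 83.1%) and 22.5% of all other protein-coding genes. OE9-1 peaks lay at 6 of 10, against 23.7% of the genes of like length (14.7 to 34.8%) and 12.2% of all others. OE17-4 peaks lay at 4 of 10, against 25% (15.8 to 36.3%) and 13.9%. The OE3-1 and OE17-4 counts lay within 2 genes of the shares at like length, and nothing about the family is read from them. None of these differences was tested, since the genes were chosen with the peaks known. In the upper 50% of the lists by FDR the OE17-4 count was 2 of 10, against 14.5% at like length, and that of OE9-1 was 3 of 10, against 10.5%. By the authors' gene column the counts were 6, 4 and 3 of 10 in OE3-1, OE9-1 and OE17-4, and 9 of 10 for any line. Shares at like length are not given for the gene column, so nothing about the family is read from those counts. The OE9-1 count fell to 0 of 10, against 3.95%, when a Wilcoxon limit taken from the OE17-4 list was applied to all lists, as described further on. A peak of any line was found at 10 of 10, against 81.6% of genes of like length and 41% of all others. Without OE3-1 these were 9 of 10, against 43.4% of genes of like length. Without OE9-1 they were 8 of 10 against 76.3%, and without OE17-4 8 of 10 against 78.9%. Peaks of all 3 lines were found at 1 of 10, against 5.26% and 0.423%. A peak between neighbouring genes counts for both of them in these shares.

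**Figure D2:**
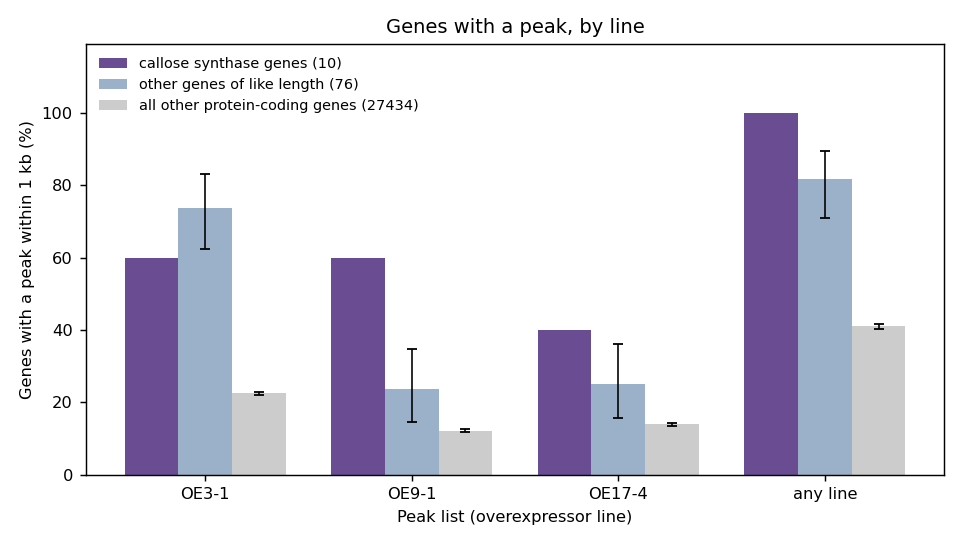
Share of genes with a peak within 1 kb, in percent, for each line and for any line. Purple bars are the 10 callose synthase genes, blue bars the 76 other genes of like length and grey bars all other protein-coding genes, with exact 95% intervals that cover counting error alone; the purple bar lies below the blue one in OE3-1 (6 of 10 against 73.7%) and above it in OE9-1 (6 of 10 against 23.7%).

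Over all other protein-coding genes, the share with a peak grew with gene span in OE3-1, with 9.76% below 1 kb, 26.7% from 2 to 4 kb, 49.7% from 6 to 8 kb and 73.7% at like length. It grew less in OE9-1, with 10.4%, 12.7%, 18.2% and 23.7% in the same classes, and in OE17-4, with 8.75%, 15.0%, 24.1% and 25%, where the class just below like length stood at 28.1%. Per length, OE3-1 had 7.51 peaks per 100 kb at the callose synthase genes with their flanks, against 9.95 at genes of like length. OE9-1 had 4.10 against 1.84 peaks per 100 kb, and OE17-4 had 3.42 against 1.84. Peaks that overlapped the gene span itself were found at 5 of 10 callose synthase genes in OE3-1, against 72.4% of genes of like length. In OE9-1 they were found at 3 of 10 against 18.4%, in OE17-4 at 4 of 10 against 18.4%, and in any line at 8 of 10 against 77.6%. The other 3 OE9-1 peaks at the family lay beside the genes, so with the span alone OE9-1 stood closer to genes of like length, at 2.37 against 1.71 peaks per 100 kb. The other lines did not come closer in this way, with 7.12 against 10.8 in OE3-1 and 3.16 against 1.61 in OE17-4.

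**Figure D3:**
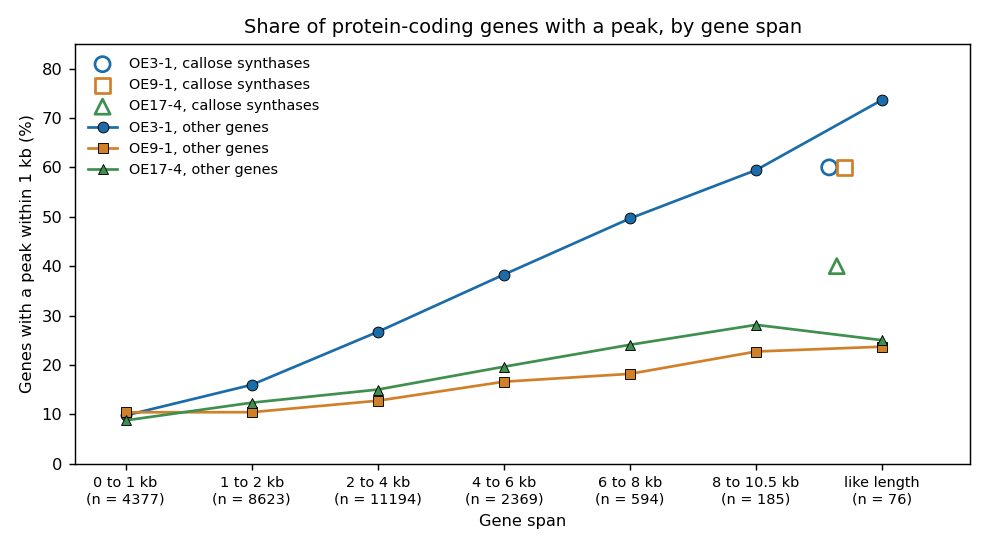
Share of protein-coding genes with a peak within 1 kb, in percent, by class of gene span, with 1 line of filled symbols per overexpressor line and the number of genes under each class. Open symbols give the 10 callose synthase genes, which lie at 6 of 10 in OE3-1 and OE9-1 and at 4 of 10 in OE17-4; the filled symbols at like length lie at 73.7%, 23.7% and 25%.

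Among the genes for dividing and growing cells, GSL8 encodes a callose synthase needed for cytokinesis and for callose at plasmodesmata, and its mutants (chorus, massue) form incomplete cell walls. Its OE3-1 peak lay on chromosome 2 at 15455677 to 15455738, with 315 reads, of which 145 were forward and 170 reverse, and a false discovery rate (FDR) of 1.83%. This and every other FDR per peak is the authors' value. Its OE17-4 peak lay at 15461034 to 15461195, with 118 reads, 59 on each strand, and an FDR of 0.54%. Its OE9-1 peak lay at 15467352 to 15467444, with 308 reads, 167 forward and 141 reverse, and an FDR of 1.3%. All were inside the gene, at 6.77%, 42.1% and 83.2% of its span. Their midpoints were 5407 bp (OE3-1 to OE17-4) and 6284 bp (OE17-4 to OE9-1) apart, so the lines marked the same gene at separate places. The authors' Wilcoxon filter p-values, described further on, were 9.4e-05 in OE3-1, 1.6e-08 in OE17-4 and 0.05 in OE9-1.

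Of the genes of like length, 4 had peaks of all 3 lines within 1 kb, as GSL8 did. In order of how close their span was to that of GSL8 they were AT2G36810 (SHOOT GRAVITROPISM 6), THO2 (AT1G24706), AT5G61140 and DEK1 (AT1G55350), with spans that differed from that of GSL8 by 972, 1525, 1677 and 3923 bp. AT2G36810 lies on the same chromosome as GSL8, with its lower end 29.4 kb away from that of GSL8. In AT2G36810, THO2 and DEK1 the peaks of all 3 lines overlapped the gene itself, and in AT5G61140 at least 1 line had its peak beside the gene alone. DEK1 lost 1 line when irregularly written rows, explained under the processing, were left out. Under the common Wilcoxon limit, described further on, neither GSL8 nor any of these 4 genes kept peaks of all 3 lines.

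GSL10, a gene needed for the entry of microspores into mitosis, had peaks of OE3-1 and OE9-1. On chromosome 3 its OE3-1 peak lay at 2273077 to 2273149, with 256 reads, 133 forward and 123 reverse, and an FDR of 0.11%. Its OE9-1 peak lay at 2276299 to 2276380, with 228 reads, 121 forward and 107 reverse, and an FDR of 2.95%. Both were deep inside the gene, at 54.8% and 76.2% of its span and 3226 bp apart. OE17-4 had no peak within 1 kb of GSL10.

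CALS1 encodes a callose synthase of the cell plate and of plasmodesmata, and GSL03 is its close paralogue. CALS1 had a single peak, from OE17-4, on chromosome 1 at 1649907 to 1650054, with 113 reads, 66 forward and 47 reverse, and an FDR of 2.32%. It lay at 20.0% of the span, 2405 bp from the nearer gene end. GSL03 showed another picture, with 5 peaks of OE3-1, 1 of OE9-1 and none of OE17-4 within 1 kb. How reads that match both genes were handled is not given in the sources used here, so a division of reads between these paralogues by the mapping was not tested.

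Inside GSL03 the 4 OE3-1 peaks on chromosome 2 were spread along the gene. They spanned 13589893 to 13589962, 13591120 to 13591190, 13595319 to 13595402 and 13598210 to 13598285, with 197, 231, 232 and 269 reads. Their positions were 11.8%, 22.1%, 57.4% and 81.7% of the span, and their FDRs were 4.31%, 0.18%, 0.4% and 1% in that order. Neighbouring peaks among them were 1228, 4205 and 2887 bp apart. With its flanks GSL03 had 5 OE3-1 peaks, a number that 1 of the 76 genes of like length also had, and 5 of the 76 had 4 or more.

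Beside GSL03, in the defensin-like gene LCR75, peaks of 2 lines met. The OE3-1 peak at 13587535 to 13587676 had 205 reads, 75 forward and 130 reverse, and an FDR of 2.76%. The OE9-1 peak at 13587674 to 13587761 had 234 reads, 89 forward and 145 reverse, and an FDR of 2.52%. They shared 3 bp as deposited, and their midpoints were 112 bp apart, which made them the only peaks of different lines at the 10 genes to overlap. Their Wilcoxon filter p-values were 3.32e-10 in OE3-1 and 0.09 in OE9-1, the latter the highest of the 22 peaks. In both the reverse strand held more reads, with normalized strand differences of 0.27 and 0.24. They lay 846 and 761 bp from GSL03, and the authors' gene column names CNX2 for both.

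Among the genes of plasmodesmal callose, GSL12 (CALS3) is known from gain-of-function alleles that close plasmodesmata in roots, and GSL04 acts in the response of plasmodesmata to reactive oxygen. GSL12 had peaks of OE17-4 alone, both at its lower end on chromosome 5. The first, at 4109846 to 4110022, had 166 reads, 86 forward and 80 reverse, with an FDR of 1.01%, and lay 149 bp outside the gene in the sequence between GSL12 and CLE40, a gene for a signalling peptide. The next, at 4110518 to 4110678, had 183 reads, 105 forward and 78 reverse, with an FDR of 0.15%, and lay 427 bp inside the gene. Their midpoints were 664 bp apart, so the signal flanked the gene end. The authors' gene column names CLE40 for both peaks, although the inner one overlaps GSL12.

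GSL04 had peaks of OE3-1 alone, both inside the gene on chromosome 3. One at 4894053 to 4894137 had 266 reads, 129 forward and 137 reverse, and an FDR of 0.1%, the lowest at the 10 genes. The other at 4896698 to 4896757 had 183 reads, 87 forward and 96 reverse, and an FDR of 3.09%. They were at 16.1% and 41.2% of the span.

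CalS7, the gene for the callose synthase of the phloem sieve plates, had peaks of OE3-1 and OE17-4. On chromosome 1 the OE3-1 peak lay at 1979071 to 1979141, with 218 reads, 134 forward and 84 reverse, and an FDR of 2.84%. The OE17-4 peak lay at 1986985 to 1987154, with 125 reads, 62 forward and 63 reverse, and an FDR of 3.44%. They were at 6.60% and 78.8% of the span, 728 and 2340 bp from the nearer gene end and 7963 bp apart.

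CALS5, the gene for the callose synthase of the microspore wall, is active in developing pollen. It had no peak inside its span. On chromosome 2 an OE9-1 peak at 5693568 to 5693656 lay 725 bp below the lower end, with 150 reads, 78 forward and 72 reverse, and an FDR of 3.08%. An OE3-1 peak at 5707029 to 5707086 lay 587 bp beyond the upper end, inside AT2G13690, with 455 reads and an FDR of 0.94%. That peak held the most reads of the 22, more than 98.7% of the OE3-1 list had, and they were uneven between strands, with 145 forward and 310 reverse.

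The last genes, GSL09 and GSL11, had a single OE9-1 peak each. The GSL09 peak lay on chromosome 5 at 14528722 to 14528782, with 249 reads, 125 forward and 124 reverse, and an FDR of 4.64%, the highest at the 10 genes. It was at 66.9% of the span. The GSL11 peak lay on chromosome 3 at 21854690 to 21854729, 573 bp beyond the upper gene end and inside AT3G59110, with 213 reads, 113 forward and 100 reverse, and an FDR of 2.1%. It was the shortest of the 22 peaks, with 40 bp.

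At the edge of the 1 kb window, the outermost peak counted was the OE3-1 peak in LCR75, 846 bp from GSL03. The nearest peaks left out were an OE17-4 peak in RAD50, 1870 bp from GSL03, with 131 reads, and an OE9-1 peak 2171 bp from CalS7, with 68 reads. No peak lay between these distances.

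Of the 16 peaks inside the genes, 14 had a midpoint more than 1 kb from both gene ends, 8 of 9 in OE3-1, 3 of 3 in OE9-1 and 3 of 4 in OE17-4. The exceptions were the CalS7 peak of OE3-1, 728 bp from a gene end, and the GSL12 peak of OE17-4. At genes of like length 77.2% of 101 OE3-1 peaks, 93.8% of 16 OE9-1 peaks and 73.3% of 15 OE17-4 peaks lay this deep. Sequence more than 1 kb from both ends makes up 84.2% of the callose synthase spans and 83.7% of the spans of like length, so most places in such long genes are deep ones.

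Reads per peak at the callose synthase genes lay around the middle of each list. OE3-1 peaks at the 10 genes had 183 to 455 reads with a median of 232, and the whole list had a median of 210 (quartiles 182 and 252). In OE9-1 the range was 150 to 308 reads with a median of 231, against a list median of 202 (156 and 248). In OE17-4 it was 113 to 183 reads with a median of 125, against 136 (112 and 172). FDRs had medians of 1%, 2.74% and 1.01% at the callose synthase genes in OE3-1, OE9-1 and OE17-4, against 2.35%, 2.73% and 1.08% over the lists. Sequencing depth is unknown, since the lists give reads inside peaks alone, so reads are compared within a list and not between lines.

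**Figure D4:**
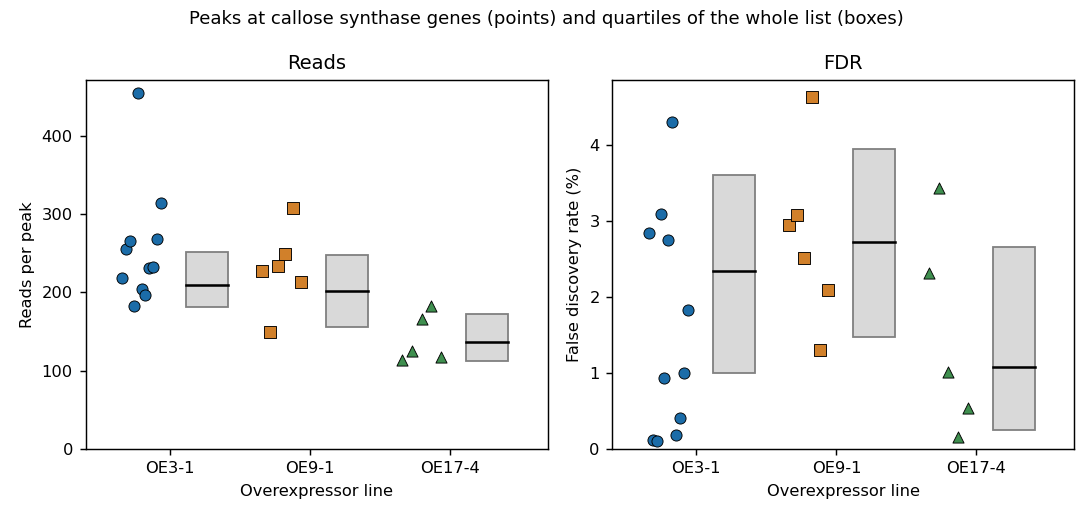
Reads per peak (left) and false discovery rate in percent (right) of the 22 peaks at callose synthase genes, by line. Points are single peaks and boxes span the quartiles of the whole list with its median as a line; the CALS5 peak of OE3-1 with 455 reads stands above the rest.

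The lists differ in the highest Wilcoxon filter p-value they hold, and a common limit lowers both the OE9-1 and the OE3-1 count. The filter p-value of each peak is the authors' value, and values reached 0.1 in the OE3-1 and OE9-1 lists but at most 8.88e-04 in the OE17-4 list. That highest OE17-4 value belongs to 1 irregularly written row, and without such rows the highest was 9.99e-05. All 6 OE9-1 peaks at the callose synthase genes had values from 0.02 to 0.09, while 22.8% of the OE9-1 list was at or below 8.88e-04. With 8.88e-04 as the limit for all lists, a comparison chosen after the data were seen, 4 of 10 genes had an OE3-1 peak (CALS5, GSL03, CalS7 and GSL8), 0 an OE9-1 peak and 4 an OE17-4 peak. Genes of like length then had peaks in 32.9%, 3.95% and 25% of cases in the same order. Under this limit 6 of 10 callose synthase genes had a peak of any line, against 48.7%, and GSL8 had peaks of OE3-1 and OE17-4. With 9.99e-05 as the limit, also chosen after the data were seen, 2 of 10 had an OE3-1 peak (GSL03 and GSL8), against 15.8% of genes of like length. For OE9-1 it was 0 of 10 against 2.63%, for OE17-4 4 of 10 against 25%, and for any line 5 of 10 against 36.8%.

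**Figure D5:**
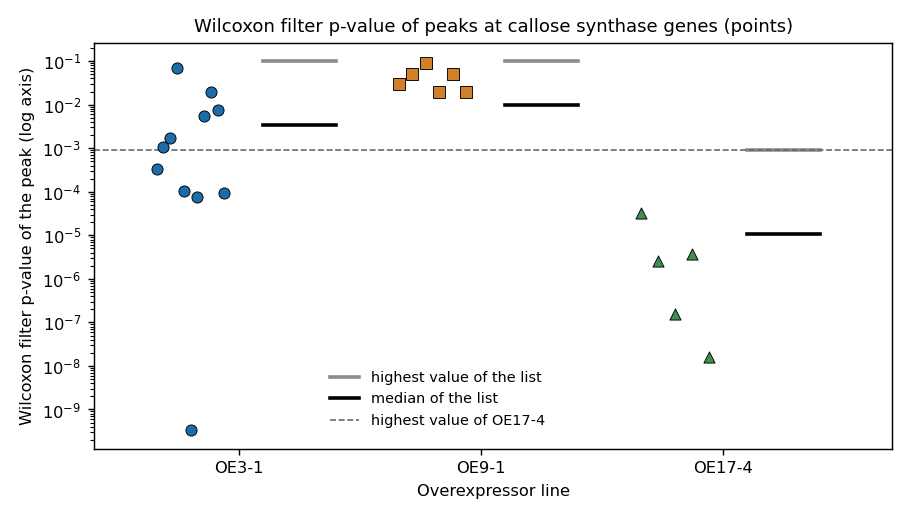
Wilcoxon filter p-value, on a log axis, of the 22 peaks at callose synthase genes by line (points), with the median and highest value of each list as bars and the highest OE17-4 value, 8.88e-04, as a dashed line. The 6 OE9-1 points lie above the dashed line at 0.02 to 0.09, and the 5 OE17-4 points lie below it.

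Of the nearly intronless family members, GSL05, the gene for wound and pathogen callose (PMR4), had no peak within 1 kb in any line. GSL1 had an OE17-4 peak on chromosome 4 at 2542101 to 2542313, with 213 reads, 105 forward and 108 reverse, and an FDR of 1.28%. It lay at 83.2% of the span. Of protein-coding genes from 6 to 8 kb, 24.1% had an OE17-4 peak and 69.5% a peak of any line, so nothing is read from GSL1 and GSL05.

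Other genes of callose and wall glucans were counted in the same way. Of 8 beta-1,3-glucanase genes, which encode enzymes that degrade callose, 0 had an OE3-1 peak, 2 an OE9-1 peak and 4 an OE17-4 peak, with BG1 and PDBG1 in both of these lines. Of 11 genes for callose-binding and other plasmodesmal proteins, 1, 0 and 2 had a peak in OE3-1, OE9-1 and OE17-4. Sucrose synthases, which supply UDP-glucose, had peaks at 0, 2 and 1 of 6 genes, and of 3 regulators of pollen wall callose (ARF17, CDM1 and CDKG1) 0 had a peak in any line. Cellulose synthases, another family of large membrane glucan synthases, had peaks at 4, 0 and 2 of 10 genes, with CESA4 in OE3-1 and OE17-4. Over these 38 genes the counts were 5, 4 and 9, and 0 genes had peaks of all 3 lines. These genes are shorter, and the share of other protein-coding genes with a peak depends on length. The glucanases, plasmodesmal proteins and pollen wall regulators had median spans of 2229.5, 2116 and 3434 bp. Of genes from 2 to 4 kb, 26.7%, 12.7% and 15.0% had a peak in OE3-1, OE9-1 and OE17-4, and 45.6% in any line. Some glucanase and plasmodesmal genes are shorter than 2 kb. Of genes from 1 to 2 kb the shares were 16.0%, 10.4%, 12.3% and 34.35% in the same order. Sucrose and cellulose synthases had median spans of 4807 and 5424.5 bp, and 38.3%, 16.6% and 19.6% of genes from 4 to 6 kb had a peak, so the cellulose synthase count in OE3-1 lay near the share at its length.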

How the data were processed

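ChIP-seq libraries of 3 lines were read as 36 bp single reads, per the labels, and each line has its own peak list. The build was TAIR10 per the submitters' processing notes. Which aligner and peak caller were run, and how the inputs entered, is not given in the sources used here. Reads per peak, in total and by strand, are raw counts deposited by the authors. The FDR (in percent), the normalized strand difference (a fraction) and the Wilcoxon filter p-value are the authors' values, per the file headers. Peak length was recomputed as end minus start plus 1. Repeated regions (1, 2 and 2 in OE3-1, OE9-1 and OE17-4) were dropped. Irregular rows, 18 with 3 dots in the region, were kept, and none is among the 22 peaks described.

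A gene was counted when a peak overlapped its span, or 1 kb on either side, by at least 1 bp. Spans came from RefSeq's TAIR10.1 gene table, and its coordinates are not printed. Gene names in the lists matched it for 98.4% to 99.5% of peaks, of which 95.2%, 63.5% and 91.0% lay within 1 kb of the gene named in OE3-1, OE9-1 and OE17-4. Of the 22 peaks, 17 carry the name of the callose synthase gene. The genes and lists were chosen with earlier results of these data known. The rule for names took all 10 genes with every peak, the nearest peaks outside 1 kb, up to 5 genes of like length with peaks of all 3 lines, and listed genes with peaks in at least 2 lines. Other names were chosen after their values were seen. No test was run, and exact (Clopper-Pearson) 95% intervals hold counting error alone. Overlap counting was checked on simulated data. Python 3.11.15, pandas 2.3.3 and scipy 1.17.1 were used. Alternatives were other windows, the gene column, stricter peak sets, other length classes and leaving out each line.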

Additional observations from a re-analysis of the deposited data

How the results depend on the processing

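Of 110 values under an alternative, 74 stayed within 1.5 times the main count, within the exact interval of a main share or within 1 SD of a mean over lines, and 36 moved. The causes were not tested beyond what each alternative leaves out by construction. With the gene span alone, 3 callose synthase genes had OE9-1 peaks (3 peaks), and the mean over lines was 4.00. With 2 kb on both sides, 2 genes had peaks of all 3 lines. In the upper 50% by FDR, 3 genes had OE9-1 and 2 OE17-4 peaks, the mean was 3.33 genes, and 7, 3 and 3 peaks were left in OE3-1, OE9-1 and OE17-4. Shares of genes of like length were then 52.6%, 10.5%, 14.5% and 61.8% for OE3-1, OE9-1, OE17-4 and any line. Under the common Wilcoxon limit, added after the data were seen, 0 genes had OE9-1 peaks, 6 had peaks of any line and 0 of all 3 lines, with a mean of 2.67 genes and with 5 OE3-1 and 0 OE9-1 peaks. Shares of like length were then 32.9%, 3.95% and 48.7% for OE3-1, OE9-1 and any line. With the limit from regular rows alone, also added after the data were seen, 2 genes had OE3-1 peaks (3 peaks), 0 OE9-1 peaks, 5 a peak of any line and 0 of all 3, the mean was 2 genes, and shares of like length were 15.8%, 2.63% and 36.8%. Leaving out a line gave 8 to 9 genes with a peak of any line, 1 to 4 with peaks of all lines left and a mean of 5 to 6. Shares of like length then ranged from 43.4% (without OE3-1) to 78.9% (without OE17-4) for any line, and their mean over lines from 24.3% to 49.3%. No such share is given for peaks of all lines left, nor for 2 kb on both sides. Nothing about the family is read from those counts. Leaving out irregular rows, using midpoints or the gene column, or other length classes gave none of the 36. No paired analysis was possible because the inputs come without a peak list and were not analysed here. Depth is unknown, which limits any statement on read numbers between lines.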
